A study of Mus musculus with 96 samples.

Results

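Padi6 and 7 genes of the subcortical maternal complex or its close partners, Nlrp5, Tle6, Ooep, Khdc3, Zbed3, Nlrp4f and Nlrp2, were followed across single mouse cells. They are 8 of the 36935 gene symbols in the count table, and all 8 were present. The 8 were taken as a named list of genes and not by their values, though with earlier results of these data known. The study picked single metaphase II oocytes and single blastomeres of 2-cell embryos from a mouse line that carries the Padi6 variant P620A, and sequenced their polyadenylated RNA after its separation from DNA. By their labels, 22 libraries were mutant oocytes with the genotype Padi6P620A/P620A, 22 were mutant 2-cell blastomeres with the genotype Padi6MatP620A/+, 22 were wild-type oocytes and 22 wild-type 2-cell blastomeres, both Padi6+/+, and 8 were negative controls. All females were 4 to 8 weeks old and had been superovulated with gonadotropins, oocytes were freed of cumulus cells with hyaluronidase 13 hours after the second injection, and embryos came from in vitro fertilisation with sperm of males aged 8 to 12 weeks. The labels give no strain and no animal or embryo of origin, so blastomeres of the same embryo may both be present, and each class or label counted as 1 sample without a test between groups.

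PADI6 is a member of the peptidylarginine deiminase family that is found in oocytes and early embryos, where it is required for the cytoplasmic lattices, the fibres that fill the mouse egg. NLRP5 (also called MATER), TLE6, OOEP (also called FLOPED) and KHDC3 (also called FILIA) form the subcortical maternal complex, which is laid down by the growing oocyte, is needed for the first cleavages in the mouse and lies with the lattices. These are maternal-effect genes: the embryo depends on the product its mother stored, and much of the stored maternal RNA is degraded between the mature egg and the 2-cell stage, when the embryonic genome is switched on.

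The stage of each library was read from 2 genes outside the list, because labels and stage genes did not match. Libraries under 100000 counts or under 4000 detected genes were left out, and 79 of 96 remained. Kept libraries with at least 100 counts per 1000000 (CPM) of Mos, the kinase that holds the egg at metaphase II, were called oocyte-like. Those below it with at least 1 count of Zfp352, a gene switched on at the 2-cell stage, were called 2-cell-like. Each class held 39 libraries, and 1 kept library fell in neither. Of the 22 libraries labelled mutant oocyte, 19 were 2-cell-like, 0 oocyte-like and 3 not kept. The label mutant 2-cell held 11 2-cell-like and 9 oocyte-like libraries, wild-type oocyte 7 and 12, wild-type 2-cell 0 and 14, and negative control 2 and 4. In all, 49 of the 72 classed libraries with a stage label belonged to the other class. The genotype labels cannot be checked from gene counts, which do not show a change of 1 amino acid, so mutant and wild type below name what a library is labelled as.

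Stage markers that the class rule did not use, listed with earlier results of these data known, are given as a description. Gdf9, H1f8, Pabpn1l and Bub1b, which are oocyte genes, were at least 2-fold lower in 2-cell-like libraries. The ranges of Gdf9, H1f8 and Pabpn1l overlapped between the classes. Bmp15, another oocyte gene, lay within 2-fold (log2 −0.75). AF067061, Tdpoz4, Tmem92 and Zscan4d, which are 2-cell genes, had an oocyte-like median of 0. They could be compared through the 2-cell-like class only, and so could only be higher. The lowest Mos level of an oocyte-like library was 200.6 CPM and the highest of a 2-cell-like library 63.3 CPM, while the weakest 2-cell-like library by Zfp352 held 1 count of it. Total counts ranged from 503644 to 3185910 in 2-cell-like libraries and from 162539 to 5762563 in oocyte-like ones, with medians of 10370 and 13671 genes detected. Markers of cumulus and granulosa cells, the follicle cells around the egg, summed to 0 to 0.0139% of counts in 2-cell-like libraries and to 0.0000259 to 1.03% in oocyte-like ones. Of those 13 markers, Hsd17b1, Thbs1 and Ptx3 had no count in any 2-cell-like library. Has2 and Amh reached higher levels there, up to 121 and 44.0 CPM, than in oocyte-like libraries, with up to 5.59 and 0.589 CPM. Star had counts in 13 and Tnfaip6 in 16 2-cell-like libraries, against 30 and 33 oocyte-like ones. CPM is a share of each library's counts, so the amount of RNA per cell was not measured.

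Padi6 RNA was far lower in the 2-cell-like libraries, and under the class rule used here the classes did not overlap. It ranged from 56.7 to 500.04 CPM (median 196) in 39 2-cell-like libraries, against 511 to 11536 CPM (median 4547) in 39 oocyte-like ones. All 39 2-cell-like libraries thus lay below every oocyte-like one. Both ends of the oocyte-like range, libraries 23 and 95, were labelled negative control. The ratio of medians, with 1 CPM added to each, was 23.0-fold lower in 2-cell-like libraries (log2 −4.53). Every library of both classes held Padi6 reads, at least 80 counts in each 2-cell-like one. Pooled over libraries, Padi6 stood at 217 CPM (exact Poisson 95% interval 214 to 221) in the 2-cell-like class and 4525 CPM (4513 to 4538) in the oocyte-like class. These intervals cover counting error only and leave out the spread between libraries. Copies made by PCR cannot be told from separate molecules here, so the intervals may be too narrow even for counting error.

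The gap between the classes was narrow at its edge. The highest 2-cell-like library, 38, had 36.0 CPM of Mos, the second highest Mos level of its class. With the Mos threshold at 30 CPM, library 38 and library 73, with 375 CPM of Padi6, would be oocyte-like. The classes would then overlap, as 2-cell-like library 48, labelled negative control, had 497 CPM. With no filter beyond 1000 counts, library 64 would be oocyte-like, with 651 CPM of Mos and no Padi6 count, and the classes would overlap as well. The lowest oocyte-like libraries were 23, labelled negative control, with 511 CPM of Padi6, and 61, labelled wild-type 2-cell, with 775 CPM. Both also had the lowest Mos levels of their class, and their cumulus and granulosa markers made up 0.512% and 1.03% of counts, against a class median of 0.0295%. The part of these follicle cell markers in the low Padi6 of both was not tested. Among all 8202 genes compared, those with a median of at least 10 CPM in 1 class or more, 36.0% were at least 2-fold lower and 17.4% at least 2-fold higher in the 2-cell-like class. Only 0.341% of genes, 28 in all, were lower with no overlap between libraries, and 0.158% were higher with no overlap. A lower ratio than that of Padi6 was seen for 357 of these genes.

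**Figure D1:**
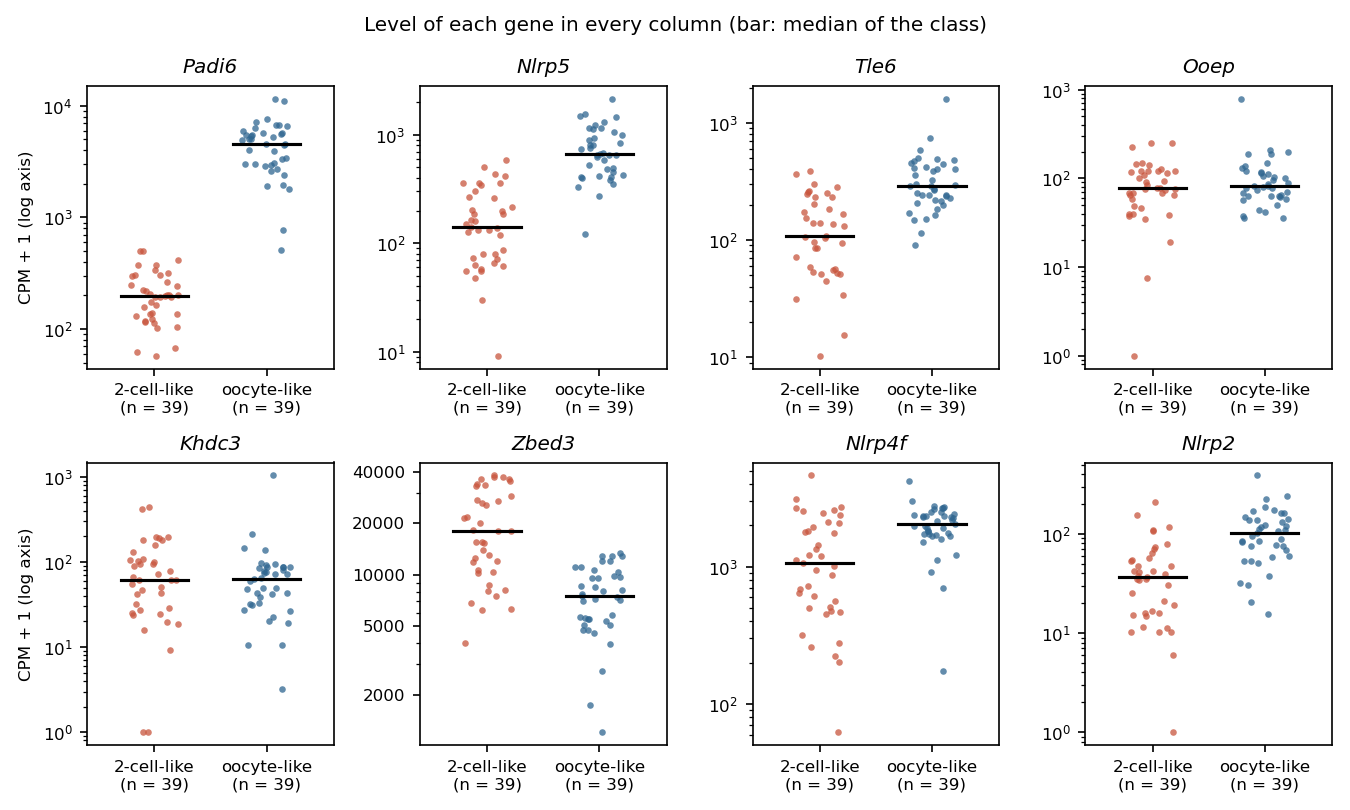
CPM of each of the 8 genes with 1 added, on a log axis, in 39 2-cell-like and 39 oocyte-like libraries (1 point per library, called a column in the plot; bar, class median). Padi6 is the gene whose classes do not overlap, Zbed3 lies higher in 2-cell-like libraries, and Ooep and Khdc3 lie at the same height in both.

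Of the 8 genes, 4 were at least 2-fold lower in 2-cell-like libraries, 1 was at least 2-fold higher and 3 lay within 2-fold. With 36.0% of all genes lower and 17.4% higher, these counts are near the background. The log2 ratios of the 8 genes spanned −4.53 to 1.26, and their median was −1.18, beside −0.36 over all compared genes.

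Nlrp5, the scaffold protein of the complex, was next after Padi6. It ranged from 8.22 to 585 CPM (median 141) in 2-cell-like libraries, against 120 to 2140.4 CPM (median 661) in oocyte-like ones, a ratio 4.66-fold lower (log2 −2.22). The ranges overlapped: 15 of 39 2-cell-like libraries lay below every oocyte-like one, and 24 oocyte-like libraries lay above every 2-cell-like one. Tle6, a relative of the Groucho corepressors that binds NLRP5 in the complex, had 9.31 to 386 CPM (median 108) in 2-cell-like libraries, against 89.1 to 1599.6 CPM (median 287) in oocyte-like ones. Its ratio was 2.66-fold lower, with 15 2-cell-like libraries below and 13 oocyte-like libraries above the range of the other class.

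Ooep and Khdc3, which encode KH domain proteins of the complex, had almost the same median in both classes. Ooep ranged from 0 to 252 CPM (median 76.6) in 2-cell-like libraries, against 34.4 to 786 CPM (median 80.7) in oocyte-like ones. Khdc3 ranged from 0 to 441 CPM (median 60.9) in 2-cell-like libraries, against 2.18 to 1038 CPM (median 61.5) in oocyte-like ones. Their log2 ratios were −0.07 for Ooep and −0.01 for Khdc3, and that of Khdc3 lay on either side of 0 under other settings. Most libraries of each class lay inside the range of the other, 35 of 39 2-cell-like libraries for Ooep and 37 of 39 for Khdc3. The spread was wide, as 1 2-cell-like library had no Ooep count and 2 had no Khdc3 count, and a count of 0 there allows up to 2.76 CPM of Ooep and up to 1.64 CPM of Khdc3. Khdc3 shares 790 exon bases with Gm20509 on the same strand, and how the authors assigned reads of that stretch is not given in the sources used here, so Khdc3 is uncertain.

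The genes for NLR proteins outside the core, Nlrp2 and Nlrp4f, also differed from each other. Nlrp2 had 0 to 209 CPM (median 35.3) in 2-cell-like libraries, against 14.4 to 388 CPM (median 102) in oocyte-like ones, 2.83-fold lower (log2 −1.50), with 9 2-cell-like libraries below the oocyte-like range. It shares 105 exon bases with the pseudogene Gm18757 on the opposite strand, and whether the counting used strand is not given, so Nlrp2 too is uncertain. Nlrp4f, a rodent gene of the Nlrp4 family, had 61.4 to 4616 CPM (median 1061) in 2-cell-like libraries, against 173 to 4230.4 CPM (median 2040.5) in oocyte-like ones. All 39 oocyte-like libraries lay inside its 2-cell-like range, and the ratio of 1.92-fold lower (log2 −0.94) missed the 2-fold mark. It passed that mark without libraries 23, 53 and 61 (log2 −1.03), with at least 10 CPM of Zfp352 asked of 2-cell-like libraries (−1.10), without the libraries labelled negative control (−1.09), and with TMM (−1.29) or DESeq2 (−1.31) scaling. It was closer to 0 with pooled counts (−0.57) or with means over libraries (−0.62). Reads of Nlrp4f may be split among near-identical family members, so its level is uncertain.

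Zbed3, a zinc finger protein of the complex also known from Wnt signalling, ran the other way. It ranged from 3988 to 38175 CPM (median 18009) in 2-cell-like libraries, against 1206 to 13466 CPM (median 7502) in oocyte-like ones. The ratio was 2.40-fold higher (log2 1.26), or log2 0.94 with TMM scaling, under which the all-gene median shifted by −0.23. Of the 39 2-cell-like libraries, 24 lay above every oocyte-like one. No 2-cell-like library lay below the oocyte-like range.

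**Figure D2:**
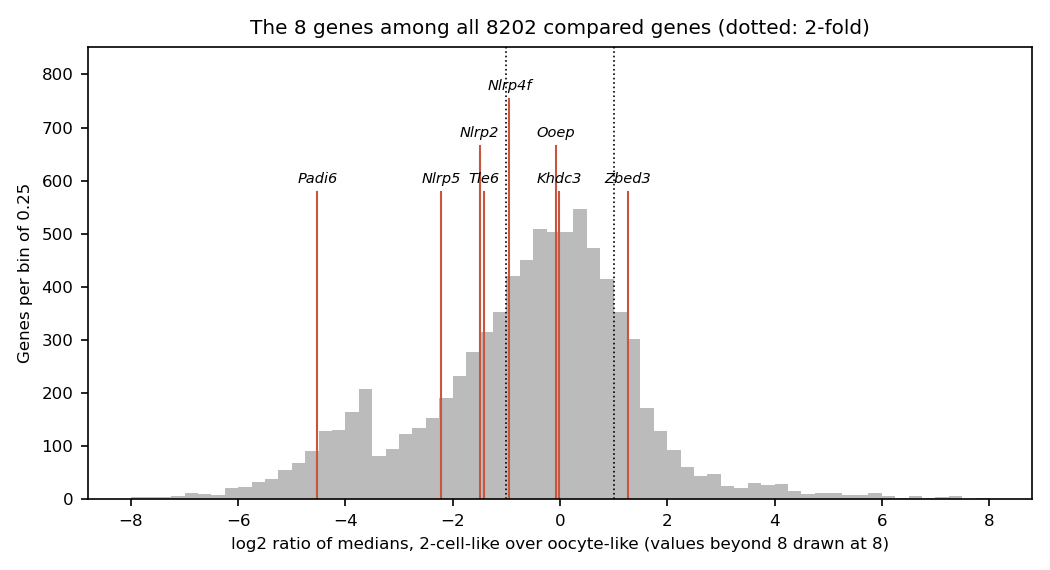
Histogram of the log2 ratio of class medians (2-cell-like over oocyte-like, 1 CPM added) for all 8202 compared genes, with the 8 genes drawn as red lines and the 2-fold marks dotted. Padi6 at −4.53 lies in the left tail, Ooep and Khdc3 near 0, and Zbed3 at 1.26 right of the 2-fold mark.

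In GRCm38, Padi6 lies at chr4:140727355-140742643 on the minus strand with 18 merged exons, and Tle6 at chr10:81590904-81601073 on the minus strand with 15. Chromosome 9 holds both KH domain genes, Ooep at 78376109 to 78378725 on the minus strand and Khdc3 at 73101836 to 73104438 on the plus strand. Chromosome 7 holds Nlrp5 at 23385889 to 23441922 on the plus strand and Nlrp2 at 5298547 to 5351035 on the minus strand. Zbed3 at 95323612 to 95337841 on the plus strand and Nlrp4f at 65177111 to 65205977 on the minus strand both lie on chromosome 13. Zbed3 and Nlrp4f, on 1 chromosome but far apart, had log2 ratios of opposite sign (1.26 and −0.94).

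To set genes side by side, medians were divided by the length of each gene's merged exons in the GENCODE M21 annotation of GRCm38, an earlier build than that of the counts. On this scale of CPM per kilobase, Zbed3 stood highest in both classes, at 8072 in 2-cell-like and 3363 in oocyte-like libraries. Padi6 was second in oocyte-like libraries, at 77.6 CPM per kilobase in 2-cell-like and 1796 in oocyte-like ones. Nlrp4f had 274 CPM per kilobase in 2-cell-like and 527 in oocyte-like libraries, and so stood above Padi6 in the 2-cell-like class only. The remaining 5 genes had class medians between 10.1 CPM per kilobase, for Nlrp2 in 2-cell-like libraries, and 136, for Nlrp5 in oocyte-like ones. In the 2-cell-like class, Ooep (35.8), Tle6 (34.8), Khdc3 (29.7) and Nlrp5 (29.1 CPM per kilobase) had ranges that overlapped. In the oocyte-like class Nlrp5 and Tle6 (93.0) had higher medians than Ooep (37.8), Khdc3 (30.0) and Nlrp2 (29.0 CPM per kilobase). The ranges of these 5 genes overlapped there as well.

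The summed share of counts was close in both classes, while its makeup differed. The 8 genes together took 0.524 to 3.94% of gene counts (median 1.93%) in 2-cell-like libraries, against 0.294 to 2.64% (median 1.61%) in oocyte-like ones, a ratio of 1.20. Without Zbed3 the sum was 0.0772 to 0.548% (median 0.185%) in 2-cell-like libraries, against 0.122 to 1.86% (median 0.840%) in oocyte-like ones, a ratio of 0.220. Zbed3 thus supplied a median of 88.0% of the 8 genes' counts in 2-cell-like libraries and 48.8% in oocyte-like ones. Of the other 7 genes' counts, Padi6 held a median of 10.7% in 2-cell-like libraries and 59.5% in oocyte-like ones. Nlrp4f held 61.6% of them in 2-cell-like libraries and 27.0% in oocyte-like ones.

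**Figure D3:**
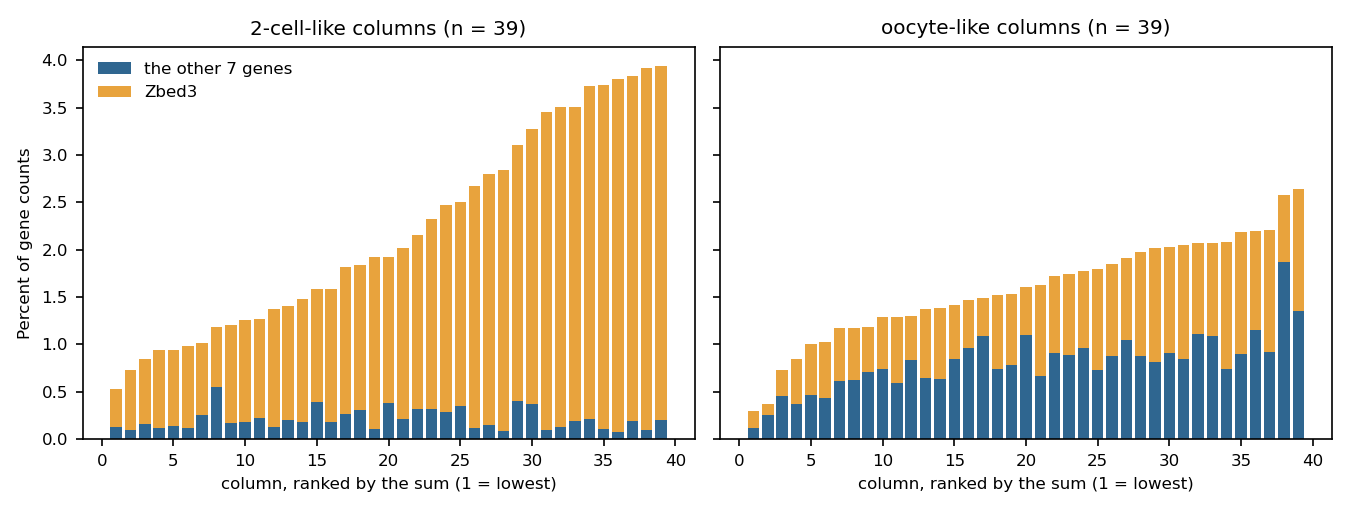
Percent of all gene counts taken by Zbed3 (orange) and by the other 7 genes (blue) in each library, ranked by the sum, for 39 2-cell-like libraries (left) and 39 oocyte-like libraries (right). The sum without Zbed3 reaches 0.548% at most in 2-cell-like libraries, against 1.86% in oocyte-like ones, while the total reaches 3.94% and 2.64%.

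The sequences upstream of Padi6 and Nlrp5, which were lower in 2-cell-like libraries, and of Zbed3, which was higher, are shown because these genes span the range of the comparison. Each line gives the 250 bases before a RefSeq transcript start on GRCm38.p6 in the direction of the gene, at chr4:140742644-140742893 (minus strand) for Padi6, chr7:23385639-23385888 (plus strand) for Nlrp5 and chr13:95323355-95323604 (plus strand) for Zbed3. Capitals mark the E-box letters CANNTG, the core motif read by basic helix-loop-helix factors, one of which, FIGLA, controls zona pellucida genes in the mouse oocyte.
Padi6: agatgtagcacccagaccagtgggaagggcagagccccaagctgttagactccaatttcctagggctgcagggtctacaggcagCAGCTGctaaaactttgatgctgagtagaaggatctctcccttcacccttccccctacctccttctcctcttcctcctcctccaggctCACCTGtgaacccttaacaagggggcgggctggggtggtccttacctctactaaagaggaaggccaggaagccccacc
Nlrp5: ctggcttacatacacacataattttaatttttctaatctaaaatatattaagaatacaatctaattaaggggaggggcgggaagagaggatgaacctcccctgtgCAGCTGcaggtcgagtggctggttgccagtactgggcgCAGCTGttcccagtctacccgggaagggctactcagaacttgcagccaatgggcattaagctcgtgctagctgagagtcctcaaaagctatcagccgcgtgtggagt
Zbed3: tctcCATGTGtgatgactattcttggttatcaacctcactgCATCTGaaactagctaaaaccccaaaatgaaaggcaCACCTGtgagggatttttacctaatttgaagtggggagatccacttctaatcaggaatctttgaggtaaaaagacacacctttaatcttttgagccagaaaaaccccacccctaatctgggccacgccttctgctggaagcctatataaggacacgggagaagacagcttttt
The Padi6 stretch held 2 matches, the nearest 78 bases before the start, the Nlrp5 stretch 2 and the Zbed3 stretch 3. All 8 genes matched the RefSeq promoter table, with 12 windows in all, and 11 of these held CANNTG, beside 66.2% of 32851 windows of the same length in the table. TAATTG, letters bound by homeobox factors, was found in 1 of the 12 windows, upstream of Ooep, beside 7.17% of all windows, and TATAAA in 2, beside 12.4%. Both strands were searched, and a match is a string of letters and not a known site.

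Within a label, where libraries of both classes carried the same name, Padi6 could not overlap, since the whole classes do not. Of all genes compared under the label mutant 2-cell, 4.31% were lower and 3.02% higher with no overlap, and under the label wild-type oocyte 7.76% were lower and 4.40% higher. Among libraries labelled mutant 2-cell, it had a median of 298 CPM in 11 2-cell-like libraries and 5071 CPM in 9 oocyte-like ones, 17.0-fold lower. Among libraries labelled wild-type oocyte, it had 135 CPM in 7 2-cell-like libraries and 3199.95 CPM in 12 oocyte-like ones, 23.5-fold lower. The other genes followed the pooled comparison less evenly. Under the label mutant 2-cell, 5 genes were at least 2-fold lower and 0 higher, beside 36.1% of genes lower and 25.5% higher. Nlrp5 did not overlap there, with 54.8 to 264 CPM in 2-cell-like and 352 to 1157 CPM in oocyte-like libraries. Nlrp4f was 2.56-fold lower, Nlrp2 6.26-fold lower and Tle6 2.18-fold lower, while Zbed3 had 8721 CPM in 2-cell-like and 5546 CPM in oocyte-like libraries, a ratio of 1.57. Under the label wild-type oocyte, 4 genes were lower and 2 higher, beside 36.6% of genes lower and 23.3% higher. Zbed3 did not overlap there, with 18121 to 37403 CPM in 2-cell-like and 2750 to 10439 CPM in oocyte-like libraries, 4.24-fold higher. Nlrp4f also had no overlap, with 201 to 560.3 CPM in 2-cell-like and 1514 to 2981 CPM in oocyte-like libraries, 4.89-fold lower. Khdc3 was 3.04-fold higher, at 180 CPM in 2-cell-like and 58.5 CPM in oocyte-like libraries, with 4 of 7 2-cell-like libraries above every oocyte-like one.

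The study set mutant against wild type, and in oocyte-like libraries the labels separated none of the 8 genes by 2-fold. The mutant label there means mutant 2-cell (9 libraries), and the wild-type label means wild-type oocyte or wild-type 2-cell (26 libraries). The counts were 0 lower and 0 higher, beside 7.11% of genes lower and 0.428% higher. Padi6 ranged from 1796 to 5982 CPM (median 5071) under the mutant label, against 775 to 11108 CPM (median 4209.8) under the wild-type label, a ratio of 1.20. All 9 mutant-labelled libraries lay inside the wild-type range. Khdc3 had the highest ratio, 1.35, with medians of 83.7 CPM under the mutant label and 61.8 CPM under the wild-type label. Zbed3 had the lowest ratio, 0.74, with 5546 CPM under the mutant label and 7477 CPM under the wild-type label. For these 2 genes as well, all 9 mutant-labelled libraries lay inside the wild-type range.

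Between the oocyte-like libraries labelled wild-type 2-cell (14) and those labelled wild-type oocyte (12), 0 of the 8 genes were lower and 0 higher, beside 1.70% of genes lower and 15.8% higher. Nlrp5 came nearest, with 616 CPM under wild-type 2-cell and 1138 CPM under wild-type oocyte, 1.84-fold lower, a ratio that 223 of 8486 genes undercut. Nlrp2 was 1.76-fold lower, at 77.9 CPM under wild-type 2-cell and 138 CPM under wild-type oocyte. Follicle cell markers had a median share of 0.0818% under wild-type 2-cell and 0.0119% under wild-type oocyte, and their part in both differences was not tested. Against the label wild-type 2-cell alone, the 9 libraries labelled mutant 2-cell again gave 0 lower and 0 higher, beside 15.6% of genes lower and 1.39% higher.

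In 2-cell-like libraries, 3 of the 8 genes were at least 2-fold lower under the mutant label and 1 was higher, beside 15.3% of genes lower and 14.6% higher. Here the mutant label covers 30 libraries, 19 labelled mutant oocyte and 11 labelled mutant 2-cell, and the wild-type label covers 7, all labelled wild-type oocyte. Khdc3 ranged from 0 to 196 CPM (median 51.9) under the mutant label, against 23.6 to 441 CPM (median 180) under the wild-type label, 3.42-fold lower. Nlrp5 had 8.22 to 506 CPM (median 131) under the mutant label and 61.0 to 585 CPM (median 304) under the wild-type label, 2.30-fold lower. For both genes most mutant-labelled libraries, 23 and 24 of 30, lay inside the wild-type range. Zbed3 had 3988 to 38175 CPM (median 13534) under the mutant label and 18121 to 37403 CPM (median 27520.3) under the wild-type label, 2.03-fold lower, and 20 of 30 mutant-labelled libraries lay below all 7 others. The calls of Zbed3 and Nlrp5 changed with single libraries. Of the 37 libraries of this comparison left out one at a time, 18 took Zbed3 out of the genes lower and 3 took out Nlrp5. Leaving out an oocyte-like or negative control library could not change these calls. Without library 3 or without library 4, both labelled wild-type oocyte, the number of genes lower was 1, which was Khdc3.

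Nlrp4f was the gene that stood higher under the mutant label in 2-cell-like libraries. It ranged from 61.4 to 4616 CPM (median 1209) under the mutant label, against 201 to 560.3 CPM (median 474) under the wild-type label, 2.55-fold higher. The highest 25 of 30 mutant-labelled libraries lay above all 7 wild-type-labelled ones. Padi6 itself stayed within 2-fold, with 56.7 to 500.04 CPM (median 202) under the mutant label and 61.4 to 194 CPM (median 135) under the wild-type label, a ratio of 1.49. Above all 7 wild-type-labelled libraries lay 18 of the 30 mutant-labelled ones.

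**Figure D4:**
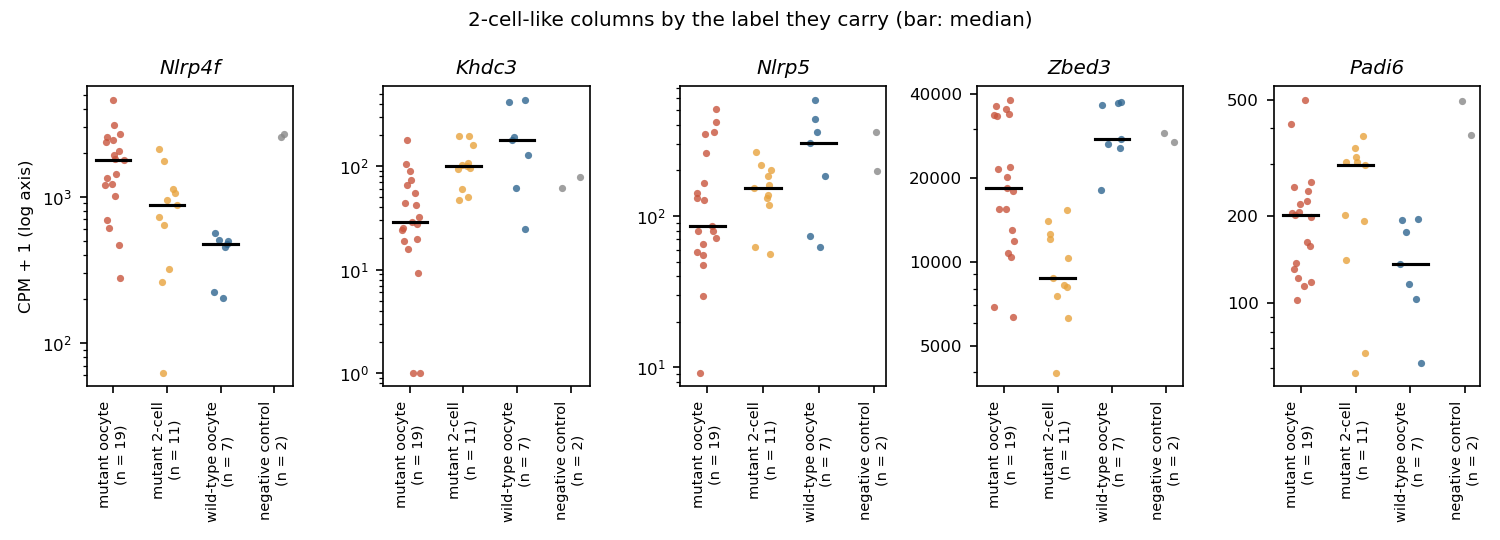
CPM with 1 added, on a log axis, of 5 of the genes in 2-cell-like libraries by the label they carry: mutant oocyte (19), mutant 2-cell (11), wild-type oocyte (7) and negative control (2), with 1 point per library and a bar at the median of each label with over 2 libraries. Of the 3 labels that name a genotype, mutant oocyte has the highest median of Nlrp4f and the lowest of Khdc3, and Zbed3 is lowest under mutant 2-cell, with no library in the range of wild-type oocyte.

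The mutant label in 2-cell-like libraries can be split into its 2 parts. Against the 7 wild-type oocyte libraries, the 19 labelled mutant oocyte had 2 genes lower and 1 higher, beside 18.8% of genes lower and 16.6% higher. Khdc3 was at 27.8 CPM under mutant oocyte and 180 CPM under wild-type oocyte, 6.28-fold lower, Nlrp5 was 3.55-fold lower, and Nlrp4f was at 1775 CPM under mutant oocyte and 474 CPM under wild-type oocyte, 3.74-fold higher. The 11 labelled mutant 2-cell also had 2 genes lower and 1 higher against the same 7 libraries, beside 15.5% of genes lower and 22.4% higher, but these were Zbed3, Nlrp5 and Padi6. Of all genes, 0.0550% were lower and 0.0688% higher with no overlap. Zbed3 did not overlap, with 3988 to 15311 CPM under mutant 2-cell and 18121 to 37403 CPM under wild-type oocyte, 3.16-fold lower. Padi6 was 2.20-fold higher, at 298 CPM under mutant 2-cell and 135 CPM under wild-type oocyte, and Nlrp5 was 2.00-fold lower.

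Set directly against each other, the labels mutant oocyte and mutant 2-cell differed at least 2-fold in 4 of the 8 genes within the 2-cell-like class. Khdc3 was 3.46-fold lower under mutant oocyte, while Zbed3 was 2.11-fold, Nlrp4f 2.03-fold and Nlrp2 2.48-fold higher. That is 1 lower and 3 higher, beside 23.0% of genes lower and 14.8% higher. These 3 comparisons share libraries, and the direction of each describes the labels as deposited.

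Within a class, the levels of the 8 genes were set against each other. Spearman's rho of CPM over 39 libraries, given as a description, had a median of 0.11 over the 28 gene pairs in 2-cell-like libraries (range −0.32 to 0.34) and of 0.31 in oocyte-like ones (−0.22 to 0.80). No pair passed 0.5 in the 2-cell-like class, and 7 did in the oocyte-like class. Over all pairs of the 5457 genes with a median of at least 10 CPM in both classes, the median rho was 0.03 in 2-cell-like and 0.02 in oocyte-like libraries, and 0.744% of pairs in the 2-cell-like class and 5.39% in the oocyte-like class passed 0.5. Pairs above 0.5 were thus more common in oocyte-like libraries among all genes as well. Nlrp5 and Nlrp2, the pair with the highest oocyte-like value, had a rho of −0.05 in 2-cell-like and 0.80 in oocyte-like libraries. Padi6 had its highest rho among the 8 genes with Ooep in 2-cell-like libraries (0.32) and with Zbed3 in oocyte-like ones (0.59). The values of a library share its depth and its total, and in sparse counts such as those of Ooep, Khdc3 and Nlrp2 a weak correlation is no finding. In oocyte-like libraries the share of follicle cell markers also ran against the level of Nlrp4f (rho −0.67), Nlrp2 (−0.54) and Padi6 (−0.35), and its part in these correlations was not tested.

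**Figure D5:**
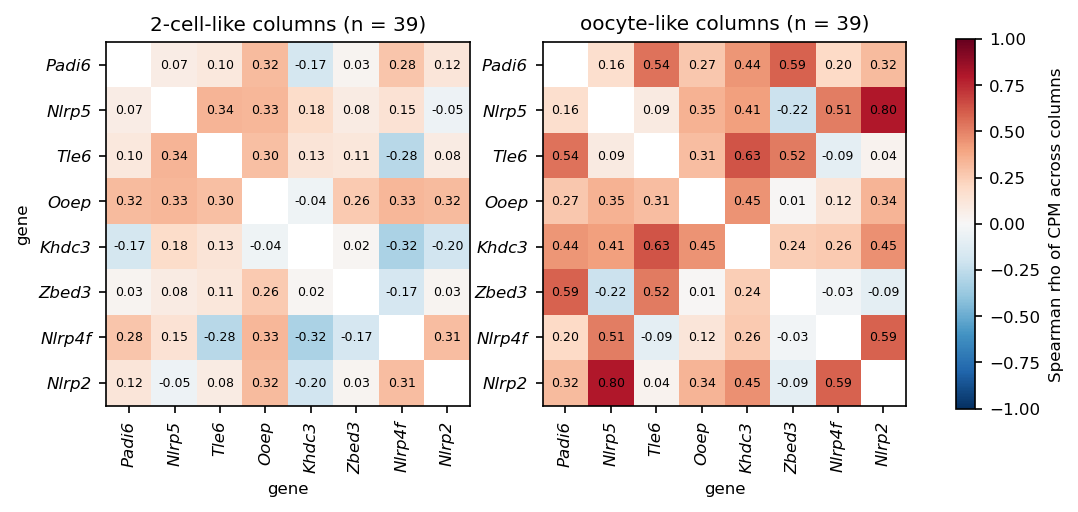
Spearman's rho of CPM for each pair of the 8 genes across 39 2-cell-like libraries (left) and 39 oocyte-like libraries (right), from blue (negative) to red (positive). The left panel has no pair above 0.34, and the right panel has 7 pairs above 0.5, led by Nlrp5 with Nlrp2 at 0.80.

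Library 53, labelled wild-type 2-cell and oocyte-like, held the highest levels of 4 genes at once. It had 2140.4 CPM of Nlrp5, 1599.6 CPM of Tle6, 786 CPM of Ooep and 1038 CPM of Khdc3. The next highest oocyte-like libraries had 1565 CPM of Nlrp5, 744 CPM of Tle6, 209 CPM of Ooep and 211 CPM of Khdc3. Padi6 was also high in it, at 11108 CPM. In library 61, by contrast, Nlrp5, Tle6, Nlrp4f and Nlrp2 were all at their oocyte-like minimum, and the share of follicle cell markers was at its maximum.

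The genes whose level was most like that of Padi6 within a class were named by rank of Spearman's rho among genes with a median of at least 10 CPM there. Genes without a proper name, such as those with Gm or Rik symbols, were left out of the ranking. In 2-cell-like libraries, Cd160 (0.69), Sgsm3 (0.61), Arhgap20 (0.60), Reep2 (0.59) and Ski (0.58) led 5572 genes. In oocyte-like libraries, Uhrf1 (0.88), Myo5b (0.88), Tinf2 (0.88), Fdft1 (0.85) and Pik3r4 (0.84) led 6837 genes. Both rankings rest on 39 libraries, and none of these genes stood in both. Of the complex, Zbed3 (0.59) and Tle6 (0.54) ranked highest in oocyte-like libraries, where 5.15% and 7.68% of the ranked genes had a higher rho with Padi6. Over both classes together Rubcn, Lamb1, Gcn1, Ern1 and Oas1h came closest, but Padi6 splits the 78 libraries into groups that do not overlap, so no pooled rho is given. Genes picked for likeness to Padi6 over both classes are lower in 2-cell-like libraries by that choice. Lamb1 had a median of 60.4 CPM in 2-cell-like and 3071 CPM in oocyte-like libraries.

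Relatives of the 8 genes and other proteins of the lattices gave a mixed picture. None of Padi1, Padi2, Padi3 and Padi4, the other peptidylarginine deiminases, reached a median of 1 CPM in either class, so 0 of 4 could be compared. Tle4 was the 1 gene of 5 Tle relatives that could be, with 14.0 CPM in 2-cell-like and 14.2 CPM in oocyte-like libraries. KH domain relatives of Ooep and Khdc3 lay above them in ratio: 3 of 4 were at least 2-fold higher and 0 lower, with a median log2 ratio of 1.98, beside 17.4% of all genes higher, 36.0% lower and an all-gene median of −0.36. Khdc1c had 192 CPM in 2-cell-like and 39.1 CPM in oocyte-like libraries (4.80-fold higher), Khdc1a 351 and 81.0 CPM (4.29-fold higher) and Dppa5a 88.2 and 23.6 CPM (3.63-fold higher), in the same order of classes. The genes of this family are alike in sequence, so their counts are uncertain.

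Of 6 genes for proteins reported with the lattices, 2 were lower, 1 was higher and 3 lay within 2-fold (median log2 ratio 0.37), against the same background over all genes. Nlrp14, an NLR protein of the oocyte, had 295 CPM in 2-cell-like and 1888 CPM in oocyte-like libraries, 6.37-fold lower. Uhrf1, which helps to maintain DNA methylation, was 2.35-fold lower, at 440.1 CPM in 2-cell-like and 1036 CPM in oocyte-like libraries. Ube2d3, a ubiquitin-conjugating enzyme, was 2.64-fold higher, at 3926 CPM in 2-cell-like and 1486 CPM in oocyte-like libraries.

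A list of 14 other maternal-effect and egg genes held Zar1, Zar1l, Npm2, H1f8, Dppa3, Dnmt1, Btg4, Zfp36l2, Kdm1b, Gdf9, Bmp15, Zp1, Zp2 and Zp3, of which Gdf9 and H1f8 are also among the stage markers above. Of these, 13 could be compared, and 8 were lower, 1 higher and 4 within 2-fold, with a median log2 ratio of −2.27, beside 36.0% of all genes lower, 17.4% higher and a median of −0.36. Dnmt1, which copies DNA methylation at replication, was 21.5-fold lower, at 34.3 CPM in 2-cell-like and 759 CPM in oocyte-like libraries. H1f8, the oocyte linker histone, was 16.9-fold lower, and Gdf9, a growth factor the oocyte secretes, 12.8-fold lower. Dppa3, which shields maternal DNA methylation, was 3.32-fold higher, at 6324 CPM in 2-cell-like and 1903 CPM in oocyte-like libraries, the direction also taken by Zbed3. Of 13 follicle cell markers 4 could be compared, Vcan, Hsd3b1, Cyp11a1 and Fst, each with a 2-cell-like median of 0. These 4 reached the level for comparison through the oocyte-like class only, and so could only be lower. Of the sperm markers 0 of 6 and of the blood markers 0 of 5 reached that level.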

How the data were processed

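The authors deposited raw counts per gene as whole numbers with no normalization, 1 column for each of 96 libraries. Per the submitters' processing notes they used Trim Galore 0.4.4, HISAT2 2.1.0, the build GRCm39 (mm39) and DESeq2, with no version given. The counting tool, its annotation, its use of strand and its treatment of reads with several matches are not given in the sources used here. RNA was amplified with 15 cycles of PCR without molecular identifiers, per the labels' protocols. Intervals treat each read as a separate molecule, cover counting error only and leave out the spread between libraries.

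Of 36983 entries, 48 repeated a symbol and were summed into it, and 0 columns lacked a sample. The 96 columns were distinct. Counts were divided by the column total, in CPM. As each library is 1 picked cell, no doublet search was made. Classes were compared by the ratio of median CPM over libraries with 1 CPM added, counted at 2-fold, among genes with a median of at least 10 CPM in a class. The labels name no animal, so groups were described without a test or a p-value. The ratio was also run on simulated data with changes well past 2-fold and the same spread setting for every gene. That run cannot speak for calls near the 2-fold mark or for genes with a wider spread. Python 3.11.15, numpy 2.4.6, pandas 2.3.3, scipy 1.17.1, R 4.3.3, edgeR 4.0.16 (TMM factors) and DESeq2 1.42.0 (size factors) were used, the last 2 only for alternative scalings.

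The genes, the 11 lists and the alternatives were chosen with earlier results of these data known. Genes named were the 8 members, up to 4 genes of each other list with the largest ratio either way, and the 5 genes with the highest Spearman rho with Padi6. The text gives a part of these. Promoter sequences are those of RefSeq on GRCm38.p6, exon lengths those of GENCODE M21, and no GRCm39 genome was used here.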

Additional observations from a re-analysis of the deposited data

Results flagged for a closer look

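Sets of 4 to 10 libraries with the same class and label were looked at for each of the 8 genes, 24 cases in all. In 3 of these cases 1 library lay far from the others. Chance gives about 1 in 20 cases, a rough rate for so few libraries, so the 3 are not read as an excess. Tle6 reached 744 CPM in library 95, labelled negative control and oocyte-like, where the next of the 4 such libraries had 292 CPM. That library had 162539 counts, the fewest of any classed library. Nlrp4f reached 4230.4 CPM in library 89, labelled mutant 2-cell and oocyte-like, and the next of the 9 had 2692 CPM. Nlrp2 reached 107 CPM in library 3, labelled wild-type oocyte and 2-cell-like, against 39.8 CPM in the next of the 7.

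Library 86, labelled mutant 2-cell, was kept but belonged to neither class, as it had no Mos or Zfp352 count. It held 4.21 CPM of Padi6 (10 counts), 7.16 CPM of Tle6 (17 counts) and 18.1 CPM of Zbed3 (43 counts), and no count of the other 5 genes, which allows up to 1.26 CPM of each. Follicle cell markers made up 0.611% of its counts.

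The 17 libraries that were not kept also held reads of the 8 genes. More than 3 counts were found for Zbed3 in 9 of them, for Padi6 in 5, for Nlrp5 in 4, for Nlrp4f in 4, for Tle6 in 2, for Nlrp2 in 2, for Ooep in 1 and for Khdc3 in 1.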

How the results depend on the processing

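Besides leaving out each of 78 libraries in turn, 13 alternative settings were run. The removal of libraries 23, 53 and 61 was added after seeing the data, as were all settings for the numbers of genes higher under the mutant label. No gene past 2-fold changed direction. The gap in Padi6 between the classes was lost with the Mos threshold at 30 CPM and with no filter beyond 1000 counts. Of the counts and shares, 4 changed by over 1.5 times and 90 by less, and all 177 log2 ratios of single genes moved by less than the spread between libraries (1 SD). That spread is of single libraries and so wide for a median of many. Some settings also left out only libraries outside the comparison, so these numbers say little about stability. Khdc3, at log2 −0.01 between the classes, changed sign, with 0.16 as its highest value. The number lower in 2-cell-like libraries was 5, with Nlrp4f added, under TMM or DESeq2 scaling, with at least 10 CPM of Zfp352, without the negative control labels and without libraries 23, 53 and 61. With TMM scaling 0 of the 8 genes were at least 2-fold higher in 2-cell-like libraries, since Zbed3 came to log2 0.94. The number lower under the mutant label in 2-cell-like libraries was 1 with pooled counts and 1 with means over libraries, 2 under either other filter on library quality, and 1 to 4 when single libraries were left out. Without any 1 library the classes still differed in 4 genes lower and 1 higher. The ratio of the summed share, 1.20, ranged from 1.02 to 1.51. Of all genes past 2-fold, 67.4% were lower in 2-cell-like libraries with medians, against 55.1% with pooled counts (2614 lower, 2133 higher) and 54.9% with means (2648 lower, 2171 higher). Without the filter on gene level, 5800 of 27797 genes were lower and 1831 higher, beside 2956 and 1427 of 8202. TMM and DESeq2 scaling moved the median of all genes by −0.23 and −0.19. The cause of these shifts was not tested. No paired analysis was possible because the labels name no animal or embryo. Nlrp2, Ooep and Khdc3 had 0 counts in single libraries, where depth allows up to 1.18 to 2.76 CPM. Each class or label is 1 sample, so no difference has a replicate check.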

Other observations

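The 6 kept libraries labelled negative control held reads of all 8 genes. The 2 that were 2-cell-like, 47 and 48, had 377 and 497 CPM of Padi6, 251.3 and 251.7 CPM of Ooep, 29088 and 26993 CPM of Zbed3 and 2578 and 2702 CPM of Nlrp4f. Their Ooep levels were the highest of the 39 2-cell-like libraries, where the median was 76.6 CPM. Both held few Zfp352 counts, 20 and 3. The 4 that were oocyte-like had 511 to 11536 CPM of Padi6 and 1206 to 12902 CPM of Zbed3. Of these, library 23 lay below every other oocyte-like library for Padi6, at 511 CPM, for Khdc3, at 2.18 CPM, and for Zbed3, at 1206 CPM.

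Among libraries that were not kept, library 67, labelled wild-type 2-cell, had 26719 counts on 22 genes, and Zbed3 alone was 3985 of these counts. Library 1, labelled wild-type oocyte, had 2693568 counts but only 3775 genes. It held 384 CPM of Padi6, 29525.5 CPM of Zbed3 and 375 CPM of Zfp352, and no count of Mos, Tle6, Ooep or Khdc3.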
